A study of Mus musculus with 12 samples.

Results

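The IL-6 family cytokines and their receptors were followed through the m6A peaks of mouse lung. The set held 9 genes, namely the ligands Il6, Lif and Osm, the receptor chains Il6ra, Il11ra1, Il6st, Lifr and Osmr, and the transcription factor Stat3. A peak belonged to the set when its assigned gene name was one of these 9, or when it had been called on the gene identifier of one of them. Peaks were found for 7 of the 9 genes, out of 14988 genes with a peak called on them in at least 1 of the 2 peak lists. Lung RNA of 3 mice of the OVA group and 3 mice of the PBS group had been sequenced by MeRIP-seq, in which fragments that an m6A antibody pulls down (IP library) are set against the same RNA without the pull-down (input library). One pooled peak list per group was analysed, so the values carry no error over mice and no difference between the lists has a replicate check. All mice were female BALB/c, aged 6 to 8 weeks. Mice of the OVA group, a model of acute allergic asthma, received ovalbumin with alum by intraperitoneal injection on days 0 and 7, followed by an aerosol of 3% ovalbumin for 30 min per day from day 14 to day 20. Control mice received PBS on the same schedule. On day 21, by the paper's methods, mice were given nebulised methacholine under anaesthesia to measure airway responses, and lungs were taken after this test.

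Most cytokines of the IL-6 family signal through a shared chain, gp130, which is encoded by Il6st. IL-6 and IL-11 first bind a receptor of their own, IL-6Rα or IL-11Rα, which holds the cytokine but does not carry the signal itself, whereas LIF and oncostatin M bring gp130 together with the LIF receptor or the oncostatin M receptor. Kinases of the JAK family then phosphorylate the chains and STAT3, and STAT3 enters the nucleus and switches on genes of the acute phase and of cell survival, among them its own inhibitor Socs3. In the lung, IL-6 shapes T cell responses, and oncostatin M and LIF act on epithelium, smooth muscle and fibroblasts. N6-methyladenosine (m6A) is a methyl mark on adenosines of mRNA, most often near the stop codon and in the 3' UTR, and proteins that bind it can change how long an mRNA lasts and how well it is translated.

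Each peak had a position on GRCm38, 1 or more exonic blocks, and a fold enrichment, the signal of the IP libraries in the peak divided by that of the input libraries. It also had the log10 of its p-value and of its FDR. The OVA list held 27292 peaks with a median fold enrichment of 5.59, and the PBS list held 26102 peaks with a median of 5.44. Because the lists were made separately, fold enrichments are given side by side and each is ranked by its percentile within its own list. A value given for OVA lungs or PBS lungs is that of the pooled list of the group. Read counts were not part of the lists, so the depth behind a single peak is unknown. Lung is a mixture of cell types, and in its bulk RNA fewer cells of a type and less RNA per cell cannot be told apart.

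The set had 18 peaks in OVA lungs and 18 in PBS lungs, and in each list 17 of these were called on the same 7 genes and 1, assigned to Il11ra1, was called on the neighbouring gene Galt. Of all genes with a called peak in either list, 82.0% had one in both, 10.8% in the OVA list alone and 7.22% in the PBS list alone. The 7 genes of the set with a peak were all in both lists. No peak was called on Il6 or Stat3 in either list, and none was assigned to them. Each of the 7 genes had at least 2 peaks called on it in each list, which 51.1% of genes did in OVA lungs and 50.2% in PBS lungs. Osmr had the most, with 4 called peaks in each list, followed by Lifr with 3.

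Nearly all peaks of the set overlapped a peak of the other list, as most peaks of the series did. Of the 18 OVA peaks, 17 overlapped a PBS peak by at least 1 bp of their exonic blocks, and 1, on Osmr, did not, whereas 19.4% of all OVA peaks had no overlapping PBS peak. Each of the 18 PBS peaks met an OVA peak, whereas 14.5% of all PBS peaks had no overlap. No peak of the set had the same start and the same end in both lists. The edge that differed more lay a median of 59 bp apart in the 17 pairs, against 60 bp over all 22006 pairs of the series. The starts differed by 0 or a multiple of 30 bp in 16 of the 17 pairs, as they did in 76.3% of all pairs.

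**Figure D1:**
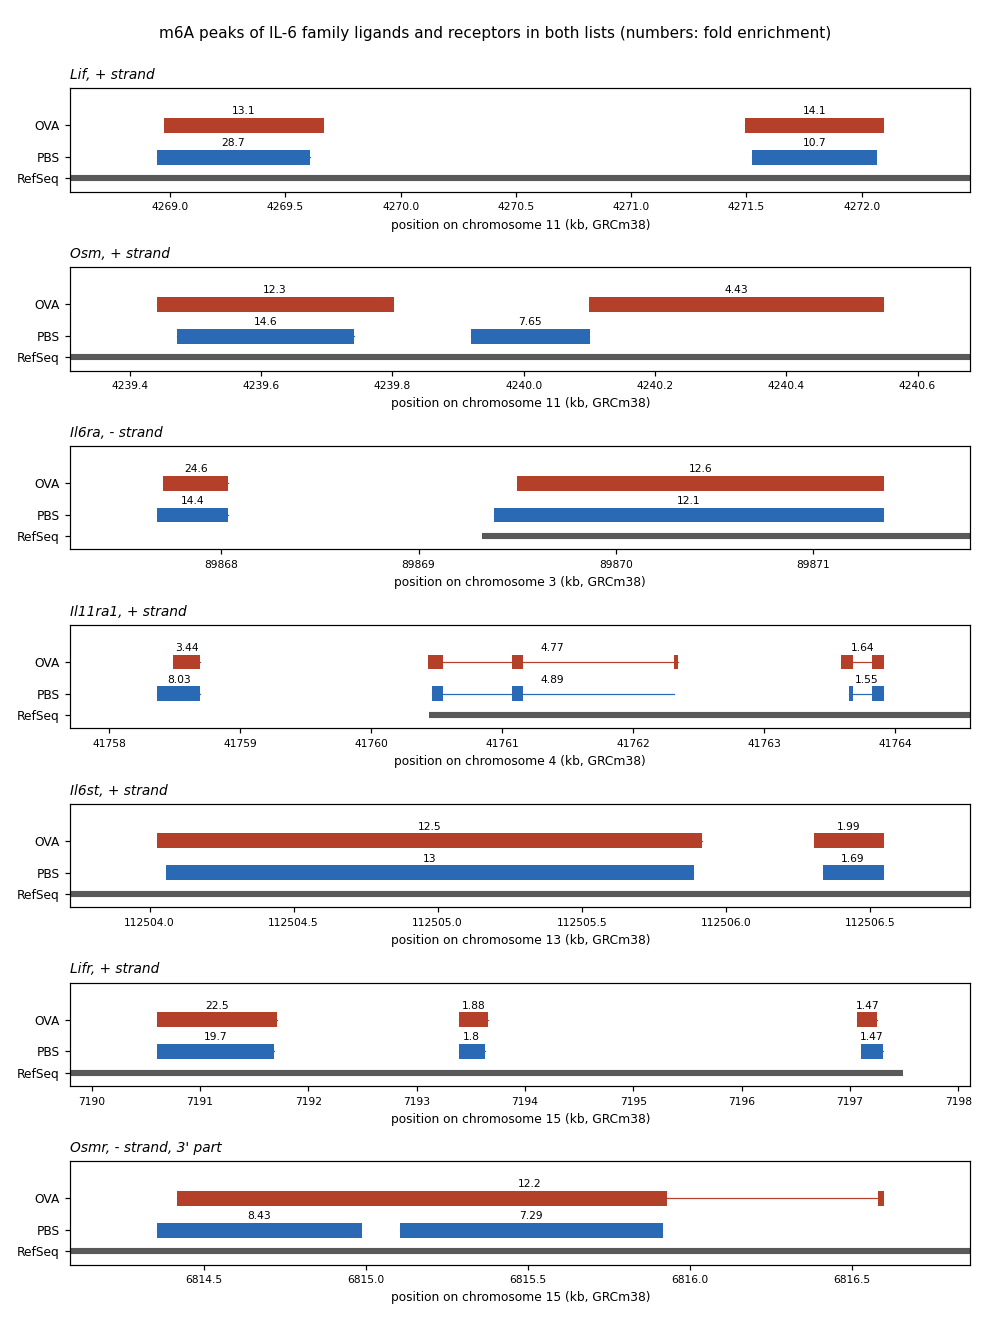
Exonic blocks of the peaks of 7 genes in OVA lungs (red) and PBS lungs (blue), with introns as thin lines, the fold enrichment above each peak and the RefSeq gene in grey, against the position on the chromosome in kb. For Osmr only the 3' part is drawn. Blocks of both lists lie above each other at most sites, apart from the PBS peak of fold enrichment 7.65 on Osm, which meets the OVA peak of 4.43 at 1 base, and the 2 PBS peaks on Osmr that face 1 OVA peak.

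Most peaks of the set were in 3' UTRs. The 3' UTR held 12 of 18 peaks of the set in OVA lungs (66.7%) and 13 of 18 in PBS lungs (72.2%), while it held 52.7% of all peaks in each list. The 5' UTR held 2 peaks of the set in each list, and other exons held 4 in OVA lungs and 3 in PBS lungs. The median fold enrichment of the set was 7.54 in OVA lungs and 7.84 in PBS lungs. Without the peak called on Galt it was 10.3 in OVA lungs and 7.65 in PBS lungs, so the order of the medians turned with this peak. Values spread widely, from 1.47 to 24.6 in OVA lungs and from 1.47 to 28.7 in PBS lungs. A fold enrichment of at least 10 was listed for 9 OVA peaks and 7 PBS peaks of the set, and for 29.8% and 28.1% of all peaks. At the other end, 5 OVA peaks and 5 PBS peaks of the set were under 2, as were 10.1% of all OVA peaks and 10.6% of all peaks in PBS lungs. The set thus held both strong peaks and peaks near the bottom of its lists. By these cuts, Il6st and Lifr had both kinds in each list, and Osmr had both kinds in OVA lungs alone.

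Among the ligands, Il6, the cytokine that gave the family its name, had no peak. Its gene lies on chromosome 5 from 30013114 to 30019975, and the nearest peak, called on Gm4961, was 76512 bp away in OVA lungs and 77291 bp away in PBS lungs. The lists give no value for an RNA without a peak, so a low amount of Il6 RNA and an absence of m6A on it cannot be told apart.

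Lif encodes leukemia inhibitory factor, a ligand of the LIF receptor with gp130, and carried 2 peaks in its long 3' UTR on chromosome 11. The upstream peak lay from 4268975 to 4269665 in OVA lungs, with a fold enrichment of 13.1 and a percentile of 80.0. Its PBS counterpart, from 4268945 to 4269605, had a fold enrichment of 28.7 and a percentile of 97.8, the highest of any peak of the set in PBS lungs. The downstream peak stood the other way round. It had a fold enrichment of 14.1 from 4271494 to 4272094 in OVA lungs, at percentile 82.6, and of 10.7 from 4271524 to 4272064 in PBS lungs, at percentile 74.4. So neither list was above the other along the whole Lif 3' UTR. The downstream peak was called on Lif and ended 420 bp before the RefSeq end of the gene in OVA lungs and 450 bp before it in PBS lungs. Its assigned gene name was nevertheless Gm11959, a non-coding RNA which starts farther along the chromosome, with 1994 bp between it and the OVA peak and 2024 bp between it and the PBS peak.

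Osm encodes oncostatin M, which macrophages, neutrophils and T cells secrete, and its gene lies 16541 bp from that of Lif. Its exon peak was found from 4239442 to 4239801 in OVA lungs, with a fold enrichment of 12.3 (percentile 77.8). In PBS lungs the same exon had a peak from 4239472 to 4239741 with a fold enrichment of 14.6 (percentile 85.6). The log10 p-value of this peak was -35.7 in OVA lungs and -10.5 in PBS lungs, although the PBS fold enrichment was the higher value. The 3' UTR peaks of Osm differed in place. The OVA peak ran from 4240100 to 4240548 with a fold enrichment of 4.43, and the PBS peak from 4239920 to 4240100 with a fold enrichment of 7.65. They shared 1 base, which was 0.223% of the OVA peak and 0.552% of the PBS peak, so they were neighbouring stretches that met the overlap rule at its minimum.

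Among the receptors, Il6ra encodes IL-6Rα, the chain that binds IL-6 and is also shed from cells as a soluble receptor. It carried a broad and a narrow 3' UTR peak on chromosome 3. The broad peak covered 1855 bp in OVA lungs, from 89869501 to 89871355, and 1975 bp in PBS lungs, from 89869381 to 89871355. Its fold enrichments were 12.6 in OVA lungs and 12.1 in PBS lungs, at percentiles 78.7 and 79.0, and its log10 p-values were -1210 and -1470. The narrow peak had a fold enrichment of 24.6 from 89867707 to 89868036 in OVA lungs, the highest of the set there, at percentile 95.4. In PBS lungs it had a fold enrichment of 14.4 from 89867677 to 89868036, at percentile 85.3. This peak lay beyond the RefSeq end of Il6ra, with 1287 bp between them, and was called as 3' UTR of Il6ra in both lists. The broad peak was therefore alike in rank in both groups, while the narrow one ranked 10.1 points higher in the OVA list.

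Il11ra1 encodes IL-11Rα, the binding chain for IL-11, and had the lowest fold enrichments among the genes of the set with a peak, when each gene was ranked by its highest called peak. Its 5' UTR peak on chromosome 4 was split over 3 blocks, from 41760432 to 41762342 in OVA lungs and from 41760462 to 41762312 in PBS lungs. The blocks held 120, 86 and 34 bp in OVA lungs and 90, 86 and 4 bp in PBS lungs. The fold enrichment was 4.77 in OVA lungs and 4.89 in PBS lungs, at percentiles 44.4 and 45.9. The next peak, over 2 exon blocks, had fold enrichments of 1.64 and 1.55, both in the lowest part of their lists at percentiles 4.24 and 3.05. A further peak was assigned to Il11ra1 but called on Galt, the neighbouring gene of galactose metabolism, which ends 1199 bp before Il11ra1 starts. It lay in the 3' UTR of Galt, from 41758487 to 41758695 in OVA lungs and from 41758368 to 41758695 in PBS lungs, with fold enrichments of 3.44 and 8.03. Its percentile was 31.6 in OVA lungs and 63.8 in PBS lungs, the widest difference in rank among the 17 pairs. Il11ra2, a near-identical copy of Il11ra1, had no called peak, and reads of the copies may be hard to assign, so the values of Il11ra1 are uncertain.

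The start of the 5' UTR peak of Il11ra1 is shown because the peaks of the lists began on either side of the start of the gene. The OVA peak took in 30 bases that the PBS peak did not, chr4:41760432-41760461 on the + strand of GRCm38.p6, read from the RefSeq promoter table. Capitals mark the 19 bases from the RefSeq start of Il11ra1 at 41760443 onward, so the OVA peak began 11 bp upstream of that start and the PBS peak 19 bp downstream of it.
Il11ra1 start: ctctctctttcTATTGGCGCTGGGAGGAGC

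Il6st encodes gp130, the signalling chain that most cytokines of the family use, and had one of the broadest and most strongly supported peaks of the set. The peak covered 1891 bp of the 3' UTR in OVA lungs, from 112504027 to 112505917 on chromosome 13, and 1831 bp in PBS lungs, from 112504057 to 112505887. Its fold enrichment was 12.5 in OVA lungs and 13.0 in PBS lungs, at percentiles 78.4 and 81.8. The log10 p-values were -3610 and -2670. A narrow peak nearer the end of the mRNA was much weaker, with fold enrichments of 1.99 from 112506307 to 112506547 in OVA lungs and 1.69 from 112506337 to 112506547 in PBS lungs. Both ended 313 bp before the RefSeq end of the gene. Thus gp130 mRNA carried a strong and a weak peak within the same 3' UTR, in the same order in both groups.

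Lifr encodes the LIF receptor chain and had the same pattern of 1 strong peak followed by weak ones. The strong 3' UTR peak began at 7190605 on chromosome 15 in both lists and ended at 7191712 in OVA lungs and 7191682 in PBS lungs. Its fold enrichment was 22.5 in OVA lungs and 19.7 in PBS lungs, at percentiles 94.2 and 92.9, and its log10 p-values were -2660 and -4370. The middle peak, which began at 7193389 in both lists, had fold enrichments of 1.88 and 1.80. The last peak, from 7197070 to 7197250 in OVA lungs and from 7197100 to 7197309 in PBS lungs, had a fold enrichment of 1.47 in both. The last peak was the weakest of the set in each list and ended 239 bp from the RefSeq end of Lifr in OVA lungs and 180 bp from it in PBS lungs.

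Osmr encodes the oncostatin M receptor chain and differed most between the lists in how its peaks were divided. In OVA lungs a single 3' UTR peak ran from 6814416 to 6816598 on chromosome 15, in blocks of 1513 and 17 bp, with a fold enrichment of 12.2 (percentile 77.4). The PBS list had 2 peaks over the same stretch, separated by 119 bp. One ran from 6814356 to 6814986 with a fold enrichment of 8.43 (percentile 65.6), and the other from 6815106 to 6815915 with a fold enrichment of 7.29 (percentile 60.3). At the start of the gene, a 5' UTR peak from 6874699 to 6874969 had a fold enrichment of 10.3 in OVA lungs (percentile 71.1). The corresponding PBS peak, from 6874639 to 6874939, had a fold enrichment of 6.25 (percentile 54.9). The 3' and 5' UTR peaks of Osmr were thus both ranked higher in the OVA list, with weak log10 p-values of -6.73 and -7.58 for the 5' UTR.

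Inside the Osmr gene the peaks were weak. The exon peak that ended at 6837357 in both lists had fold enrichments of 1.65 in OVA lungs and 1.83 in PBS lungs. The other OVA exon peak, from 6837477 to 6837657, was the one peak of the set without a counterpart. Its fold enrichment was 2.15 (percentile 12.9), and 119 bp lay between this peak and the nearest PBS peak. These exon peaks and the 3' UTR peaks were assigned to Osmr transcripts annotated as retained introns, while the 5' UTR peak was assigned to a protein-coding transcript.

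Stat3, the transcription factor that carries the signal into the nucleus, had no peak between 100886806 and 100939594 on chromosome 11. The nearest peak was called on the neighbouring gene Stat5a and ended, in both lists, at a position 1997 bp below that of the first base of Stat3. It had a fold enrichment of 2.36 in OVA lungs and 2.65 in PBS lungs. As for Il6, the lists do not tell how much Stat3 RNA was present.

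**Figure D2:**
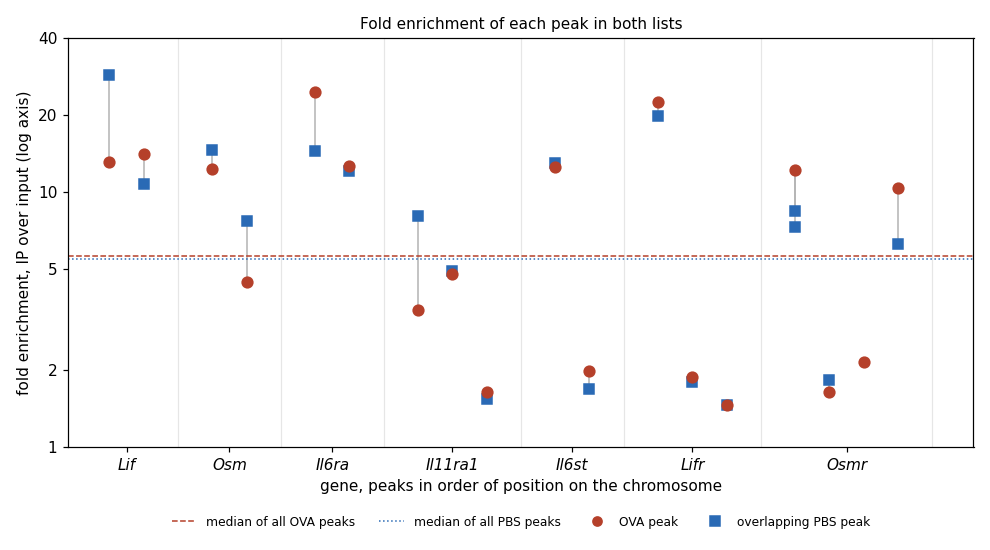
Fold enrichment of IP over input (log axis) of each peak of the set in OVA lungs (circles) and of the overlapping PBS peaks (squares), by gene, with the median of all peaks of each list as broken lines. The 3' UTR pair on Osm (4.43 and 7.65) and the pair called on Galt and assigned to Il11ra1 (3.44 and 8.03) lie on both sides of the medians, and the other pairs lie on one side.

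The pairs of the set were also compared by their rank within the lists. The OVA percentile was at least 10 points above the PBS percentile in 3 of the 17 pairs, against 23.3% of all pairs. These were the narrow Il6ra peak and the 3' UTR and 5' UTR peaks of Osmr, with differences of 10.1, 17.0 and 16.2 points. The value of 17.0 set the single OVA peak of Osmr against the PBS peak of 7.29, which covered 52.9% of it. The other PBS peak under that OVA peak had a fold enrichment of 8.43, at percentile 65.6. The PBS percentile was at least 10 points above the OVA percentile in 3 of the 17 pairs, against 17.7% of all pairs. These were the upstream Lif peak, the 3' UTR peaks of Osm and the peak called on Galt. The Osm pair shared only 1 base and the Galt pair lay on the mRNA of another gene. Among the 15 pairs called on genes of the set that shared at least 50% of both peaks, a rule chosen after the data were seen, the OVA percentile was higher by that margin in 3 and the PBS percentile in 1, the upstream Lif pair, against 22.2% and 14.4% of all pairs with such an overlap. The median size of the shift was 4.74 points over the 17 pairs of the set and 7.78 points over all 22006 pairs. These medians were not matched for rank. Of the OVA peaks of the set, 27.8% had a fold enrichment under 2, against 10.1% of all OVA peaks. The pairs of the set with such an OVA peak shifted by 4.74 points or less. By the highest called peak of each gene, the order in OVA lungs was Il6ra, Lifr, Lif, Il6st, Osm, Osmr and Il11ra1. In PBS lungs it was Lif, Lifr, Osm, Il6ra, Il6st, Osmr and Il11ra1. Il6st, Osm and Osmr lay between 12.2 and 12.5 in OVA lungs, and without replicate values it cannot be said whether neighbours in either order differ. Against all genes with a peak, the highest Lifr peak was at percentile 89.3 in OVA lungs and 87.3 in PBS lungs, and that of Il11ra1 at 27.4 and 28.9.

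The rest of the pathway was read from lists of genes, by whether a peak had been called on each, and each gene is given by its highest peak in each list. Of all genes with a called peak in either list, 82.0% had one in both, 10.8% in the OVA list alone and 7.22% in the PBS list alone. The counts below also include genes without a peak, for which there is no such share. Of 8 other ligands of the family, 1 had a peak in both lists, 1 in the OVA list alone and 6 in neither. Clcf1, a cytokine that acts through the ciliary neurotrophic factor receptor, had fold enrichments of 10.1 and 11.9 in OVA and PBS lungs. Ebi3, the subunit shared by IL-27 and IL-35, had a 3' UTR peak of 3.98 only in the OVA list, from 55956726 to 55956785 on chromosome 17. Of 4 other receptors, 2 had peaks in both lists. Il31ra, the IL-31 receptor chain and neighbour of Il6st on chromosome 13, had fold enrichments of 15.9 and 12.3. Il27ra, a receptor chain for IL-27, had highest fold enrichments of 7.70 and 3.49, on different peaks.

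Of 8 JAK kinases and adaptors of gp130, 7 had peaks in both lists and 1 in neither. Shc1, an adaptor that links receptors to the RAS pathway, had a 5' UTR peak with fold enrichments of 26.7 in OVA lungs and 8.69 in PBS lungs, with the same start and end in both. Jak1, a kinase bound to gp130, had 15.0 and 12.5. Of 6 feedback inhibitors, 5 had peaks in both lists and 1 in neither. Cish, a SOCS family gene induced by STAT5, had fold enrichments of 21.7 and 29.2, and Socs3, which blocks gp130 itself, had 18.8 and 19.3. Of 3 proteases and endocytic receptors that cleave or take up IL-6 family receptors, 3 had peaks in both lists. Sorl1, a sorting receptor, had fold enrichments of 20.2 and 21.7. Adam17, the protease that sheds IL-6Rα, had 8.48 in OVA lungs, and the highest of its 2 PBS peaks had 10.4.

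Of 6 regulators of Il6 mRNA decay, 6 had peaks in both lists, although Il6 itself had none. Arid5a, which stabilises Il6 mRNA, had highest fold enrichments of 15.3 and 16.8, and Rc3h1, which encodes the decay factor roquin, had 5.90 and 8.05, on different peaks. Of 16 target genes of STAT3, 13 had peaks in both lists, 2 only in the OVA list and 1 in neither. Myc, a driver of cell growth, had fold enrichments of 75.5 and 79.0, and Cebpb, a transcription factor of the acute phase, had 43.0 and 30.4. Hif1a, the hypoxia factor, had an exon peak of 1.60 only in the OVA list, and Saa3, an acute phase protein, had a 5' UTR peak of 2.37 only in the OVA list. For comparison, 9 of 12 type 2 cytokine receptors and STATs had peaks in both lists and 3 in neither. Il9r, the IL-9 receptor chain, had fold enrichments of 42.6 and 28.6. Il5ra, the IL-5 receptor chain of eosinophils, had 21.8 and 52.3.

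Markers of lung cell types were looked up in the same way, with the limit that a peak shows neither how much RNA nor how many cells were present. Peaks in both lists were found for 5 of 6 markers of lung epithelium, 3 of 3 of endothelium and 3 of 4 of smooth muscle and fibroblasts, but Sftpc, a defining gene of alveolar type 2 cells, had none. Of 4 eosinophil markers, only Ccr3 had a peak, and Siglecf, Epx and Prg2 had none. The OVA peak of Ccr3 was in the 3' UTR, with a fold enrichment of 13.0 and a log10 FDR of -252. Its PBS peak, from 124029042 to 124029102, was an exon peak of 6.17 with a log10 FDR of only -1.87. Of 4 neutrophil markers, Cxcr2 and Csf3r had peaks in both lists, and S100a8 and S100a9 only in the PBS list. Of 3 T cell markers, 2 had peaks in both lists and Cd3g only in the OVA list. Of 3 B cell markers, 1 had a peak in both lists and 2 in neither. Of 4 macrophage markers, Mrc1 had peaks in both lists, Chil3 only in the PBS list, and 2 had none. Of 4 cardiac muscle markers, Ryr2 had peaks in both lists, Myh6 and Tnnt2 only in the PBS list, and Actc1 in neither. The part of the cell makeup in the peaks of the IL-6 family was not tested.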

How the data were processed

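MeRIP-seq of lung RNA gave 3 IP and 3 input libraries per group. The authors cleaned reads with FASTP, aligned them with HISAT2 to the Ensembl mouse genome, used exomePeak to call peaks and ChIPseeker for their annotation. They also used exomePeak to find peaks methylated differently between the groups, and that comparison was not used here. Versions of these tools are not given in the sources used here, nor is how the replicates were combined. Fold enrichments were deposited as ratios of IP to input signal, and as scores the log10 of each p-value and FDR was deposited, all from the authors' caller. Deposited positions, widths, block numbers and distances are in bp or counts. Starts were taken to count from 0 and were raised by 1. This was inferred, since 649 OVA and 606 PBS starts lay 1 below the start of the assigned transcript and 20 and 19 equalled it. Against this choice, the deposited width was 1 bp larger than the blocks, and the widths given here are those of the blocks. The base shared by the Osm 3' UTR peaks and distances from peak starts, as at Il11ra1, rest on the raised starts.

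Peaks of the lists were compared by overlap of exonic blocks (minimum 1 bp). Where several overlapped, the largest overlap made the pair. Percentiles rank fold enrichments within a list. No test was run. Of 17 OVA peaks called on the set, 16 overlapped the RefSeq gene on GRCm38, as did 16 of 17 PBS peaks. Called identifiers had a symbol for 27259 OVA and 26070 PBS peaks. Of each gene list, genes with a peak in 1 list and the 2 others with the highest OVA fold enrichment were named. Other marker genes were named after their values were seen. The members and lists were chosen with earlier results of these data known. Python 3.11.15, numpy 2.4.6, pandas 2.3.3 and matplotlib 3.10.9 were used, and the overlap code was tested on simulated data.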

Additional observations from a re-analysis of the deposited data

How the results depend on the processing

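The counts of peaks, of overlapping peaks and of genes in both lists were recomputed under those of 9 alternative settings that apply to each, and 27 of the 29 values were within 1.5 times the reported value. With identical start and end as the rule, 0 OVA peaks of the set overlapped a PBS peak and 0 PBS peaks overlapped an OVA peak, since each pair differed at an edge. An overlap of 50% of both peaks gave 16 in each list. With that overlap and only called genes, an alternative chosen after seeing the data, the pairs ranked higher in the PBS list fell from 3 to 1, and those ranked higher in the OVA list numbered 3 as before. A fold enrichment of at least 2 left 13 peaks in each list and 7 genes in both. An FDR under 0.001 left 18 OVA and 17 PBS peaks, and counting only called genes or only assigned names left 17 in each.

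No paired analysis was possible because the lists hold 1 pooled set of peaks per group and no values of single mice. For the same reason leaving out each replicate could not be run. The planned count of the m6A motif was not run, since no genome was used here. No error, interval or depth is known for a fold enrichment, so differences between the lists on the same gene are descriptions of 2 lists and not of the groups of mice.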

Other observations

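In the KEGG annotation that the lists carry, the Jak-STAT pathway held 83 genes with a peak whose called and assigned gene were the same, a set chosen after the data were seen. Of these, 78 (94.0%) had a called peak in both lists, among them the 7 genes of the IL-6 family, beside 3411 (86.7%) of the 3933 genes chosen by the same rule with any KEGG pathway. The remaining genes were named after their values were seen. Csf2ra, the GM-CSF receptor chain, had a peak only in the OVA list, with a fold enrichment of 3.73 and a percentile of 35.0. Il15, a cytokine of NK and memory T cells, had a 3' UTR peak only in the PBS list, with a fold enrichment of 14.8 and a percentile of 86.1. Lep, which encodes leptin and signals through STAT3, had one of 12.8 only in the PBS list, at percentile 81.2. Fhl1 and Gfap had weaker PBS peaks of 1.94 and 2.32.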
